A study of Homo sapiens with 2 samples.

Results

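The BCR-ABL1 fusion partner regions were taken as a pair of genomic windows, and the peaks of RNA recovered with HA-precipitated GATA2 were counted in them. The first window ran from 16.8 to 23.7 Mb on chromosome 22, covering 22q11 up to BCR, and the other ran from 133.5 to 134.2 Mb on chromosome 9, a part of 9q34 that holds ABL1 and NUP214. A peak belonged to a window if its midpoint lay inside it, which gave 11 peaks of 2692 listed, 8 in the 22q11 window and 3 in the 9q34 window. The choice of peaks within the windows rested on position alone and used neither length nor score. The windows themselves were chosen with earlier results of these data known. The library was an HA immunoprecipitate from K562 cells carrying a GATA2 transgene, which had received 4-thiouridine, a nucleoside that crosslinks under long-wave light, at 100 µM over 24 hours and doxycycline at 1 µg/mL over 5 hours before crosslinking at 365 nm and 0.3 J/cm2. An input library of the same cells completed the series and was not analysed here, nor were cells without the transgene. The sources used here name neither the promoter of the transgene nor the number of clones. RNA fragments crosslinked to the precipitated protein were sequenced by a modified form of seCLIP (single-end enhanced CLIP). Each group held 1 library, so no difference below has a replicate check, and no p-value was computed. Positions of peaks are on hg19, counted from 1.

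K562 is an established line from chronic myelogenous leukaemia. In this disease a translocation joins the front part of BCR to most of ABL1, which encodes a tyrosine kinase, and the fused kinase signals without its normal restraint. K562 cells are known to carry extra copies of the joined segment together with DNA on both sides of the break, including the nuclear pore gene NUP214. The 22q11 band is known for long blocks of near-identical sequence, and the lipid kinase gene PI4KA has the pseudogenes PI4KAP1 and PI4KAP2 in that band. The copy number of these segments was not measured here.

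The windows differed in what they held. Neither BCR nor ABL1 carried a listed peak, while NUP214 carried 2. The 22q11 window had about as many peaks per Mb as the rest of chromosome 22, but most of its peaks were broad. The 9q34 window had more peaks per Mb than the rest of chromosome 9, from only 3 peaks. The interval of the ratio of these densities lay wholly above 1 in 3 of 8 ways of computing it. Of these 3, membership by overlap only repeated the main value, since it counted the same peaks. The interval reached below 1 with the close NUP214 pair counted as 1 locus. The 3 peaks were narrow or of ordinary length. Scores in both windows were near those of the whole list, though the 22q11 window had a higher median score than the rest of chromosome 22.

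**Figure D1:**
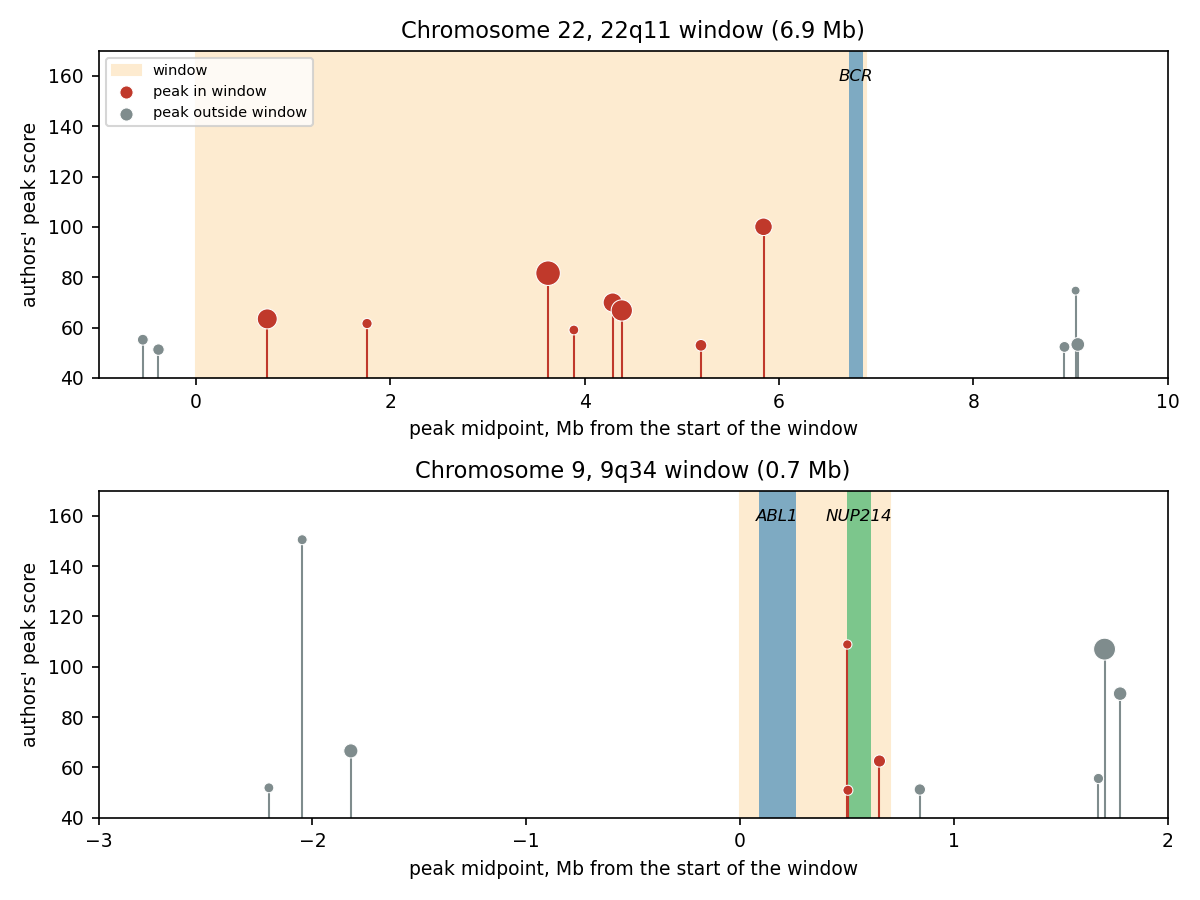
Score of each peak (the authors' value, vertical axis) against the distance of its midpoint from the start of the window in Mb, with the 22q11 window above and the 9q34 window below. Shading marks the windows and the intervals of BCR, ABL1 and NUP214, and larger points are longer peaks; the BCR and ABL1 intervals hold 0 peaks and the NUP214 interval holds 2, both at its left edge.

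The intervals of BCR, ABL1 and NUP214 were given with the definition of the windows, rounded to 2 decimals in Mb. BCR spanned 23.52 to 23.66 Mb of chromosome 22 and held 0 peaks. The nearest peak before it, from 22638881 to 22642425, ended 878 kb away, and the nearest after it, from 25736857 to 25737770, began 2.08 Mb away and outside the window. BCR thus lay inside a stretch of 3.09 Mb without a listed peak, the 3rd widest of the 39 gaps between successive peaks on chromosome 22, where the median gap was 0.641 Mb. An interval as short as that of BCR, 140 kb, would hold 0.153 peaks at the density of the rest of chromosome 22. A count of 0 in it therefore does not set BCR apart from its chromosome.

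ABL1 spanned 133.59 to 133.76 Mb of chromosome 9 and also held 0 peaks, where the density of the rest of that chromosome would give 0.116. The nearest peak before it ended 1.91 Mb away, and the nearest after it began 241 kb away, at the start of the NUP214 interval. The stretch without a peak around ABL1 measured 2.32 Mb and ranked 15th by width among the 98 gaps of chromosome 9, whose median was 0.416 Mb. With each interval widened by 100 kb on both sides, BCR and ABL1 still held 0 peaks.

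NUP214, which encodes a nucleoporin on the cytoplasmic face of the nuclear pore, spanned 134.00 to 134.11 Mb and held 2 of the 3 peaks of the 9q34 window. The first lay from 134000969 to 134001444, was 476 bp long and scored 108.87. The second lay from 134003721 to 134004391, was 671 bp long and scored 50.95. The first thus had a score 2.14 times that of the second and ranked 348 of 2692, while the second ranked 2590, close to the lowest score in the list, 50. They were separated by 2276 bp and began 969 and 3721 bp after the rounded start of the interval, so both lay near the end of the gene interval that faces ABL1. Whether either covers the first exon was not determined, since no annotation of hg19 was used. The third peak of the window, from 134151014 to 134152335, began 41.0 kb beyond the NUP214 interval, was 1322 bp long and scored 62.57. The list gives no strand, so the strand that yielded the RNA is unknown for all 3.

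The 250 bases before a RefSeq start of NUP214, ABL1, BCR and PI4KA are shown. NUP214 has peaks at the start of its interval, whereas the ABL1 and BCR intervals hold none. PI4KA is shown because it alone of these genes has a GATA word in its stretch. The stretches are RefSeq sequences of GRCh38.p14, another build than that of the peaks, read 5′ to 3′ on the strand of the gene. Their positions there are chr9:131125336-131125585 (plus strand) for NUP214, chr9:130835004-130835253 (plus strand) for ABL1, chr22:23180259-23180508 (plus strand) for BCR and chr22:20858812-20859061 (minus strand) for PI4KA. Capitals mark GATA or its complement TATC, the core of the word that GATA factors bind in DNA.
NUP214: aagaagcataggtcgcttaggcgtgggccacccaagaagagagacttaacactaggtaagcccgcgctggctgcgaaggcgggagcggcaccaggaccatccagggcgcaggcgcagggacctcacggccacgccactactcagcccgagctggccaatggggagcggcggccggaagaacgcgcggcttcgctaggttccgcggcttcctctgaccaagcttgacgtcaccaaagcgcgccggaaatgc
ABL1: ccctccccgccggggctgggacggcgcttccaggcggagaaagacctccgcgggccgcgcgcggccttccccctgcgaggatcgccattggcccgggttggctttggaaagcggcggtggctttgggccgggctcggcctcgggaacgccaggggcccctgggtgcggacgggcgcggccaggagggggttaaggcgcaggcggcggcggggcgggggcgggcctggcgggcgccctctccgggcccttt
BCR: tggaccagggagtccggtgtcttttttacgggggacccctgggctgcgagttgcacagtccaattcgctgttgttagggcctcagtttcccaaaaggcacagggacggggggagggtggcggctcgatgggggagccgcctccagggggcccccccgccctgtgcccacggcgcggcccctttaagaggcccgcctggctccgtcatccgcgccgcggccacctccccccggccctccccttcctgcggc
PI4KA: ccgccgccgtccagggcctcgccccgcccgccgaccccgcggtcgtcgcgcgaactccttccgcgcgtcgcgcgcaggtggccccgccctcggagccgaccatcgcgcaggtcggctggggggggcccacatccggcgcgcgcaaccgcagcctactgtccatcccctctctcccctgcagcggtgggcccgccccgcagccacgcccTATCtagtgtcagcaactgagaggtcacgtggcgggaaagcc
GATA or TATC stood in 1 of these 4 stretches, that of PI4KA, as the TATC in capitals. Of 35116 RefSeq promoter stretches of the same length, 45.6% held either word. PI4KA was shown because of its match, so 1 of 4 cannot be compared with that share. No peak was placed on PI4KA, so the match is not tied to a listed peak. The match in PI4KA was part of a longer word of a set of 4, namely AGATAA or AGATAG and likewise TGATAA or TGATAG, which on either strand occurred in 22.3% of all stretches. Every longer word holds the core, so these shares overlap. The stretches of NUP214, ABL1, BCR and PI4KA were 65.2%, 78.4%, 70.8% and 75.6% G or C, against a median of 58% over all. RefSeq listed a further start for NUP214, which is not shown. The ABL1 and NUP214 stretches begin at 130835004 and 131125336. They are closer together than the hg19 interval starts of these genes, 133.59 and 134.00 Mb. The ABL1 stretch therefore appears to lie inside the ABL1 interval and not before its start. The assay recovers RNA, and the printed bases lie upstream of the listed start, so they describe the genes and not the recovered fragments.

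The 22q11 window held 8 peaks, or 1.16 per Mb (exact 95% Poisson interval 0.501 to 2.28). From the end of the window to the last peak of chromosome 22 there were 30 peaks in 27.5 Mb, or 1.09 per Mb (0.736 to 1.56). The ratio of the densities was 1.06, with an exact conditional interval of 0.421 to 2.37, so no difference was detectable with this number of peaks. These intervals cover counting error only and treat peaks as independent, which peaks of 1 transcript are not. The other chromosomes together had 0.922 peaks per Mb. Among 407 other stretches of 6.9 Mb laid end to end along the chromosomes, the median count was 5 and 121 stretches held 8 or more.

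The 9q34 window held 3 peaks in 0.7 Mb, or 4.29 per Mb (0.884 to 12.5), against 96 peaks in 140 Mb, or 0.684 per Mb (0.554 to 0.836), on the rest of chromosome 9. The ratio was 6.26 with an interval of 1.27 to 18.9. With the widest stretch without a peak left out of the rest, the ratio was 5.20 (1.05 to 15.7). With the close pair in NUP214 counted as 1 locus it was 4.50, and the interval then reached below 1 (0.537 to 16.8). It also did so against the 10 Mb on each side of the window (4.54, 0.847 to 15.9) and against all other chromosomes (4.58, 0.943 to 13.4). Of 199 other stretches of 0.7 Mb on chromosome 9, 11 held at least 3 peaks and 143 held none.

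**Figure D2:**
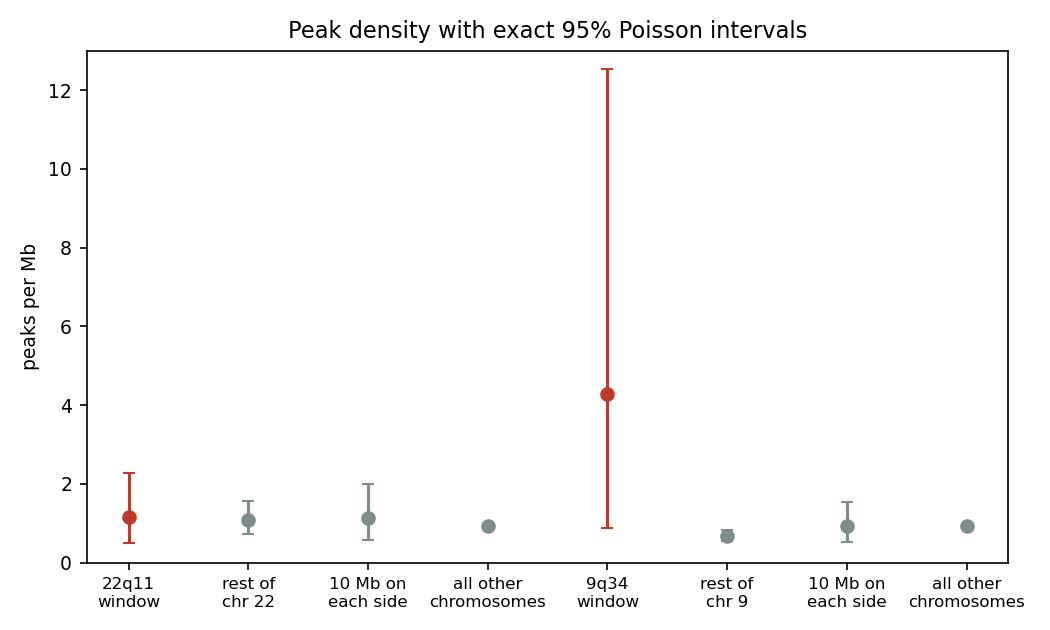
Peaks per Mb (vertical axis) in each window, on the rest of its chromosome, in the 10 Mb on each side and on all other chromosomes, with exact 95% Poisson intervals as bars (too narrow to see for all other chromosomes). The 22q11 window, at 1.16 per Mb, sits beside its references, while the 9q34 window, at 4.29 per Mb, has an interval from 0.884 to 12.5 because it rests on 3 peaks.

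Lengths in the 22q11 window lay further from those of the rest of its chromosome than densities did. From the centromere side, the peak from 17532323 to 17537133 was 4811 bp long and scored 63.47. The next, from 18560778 to 18561514, was 737 bp long and scored 61.63. The peak from 20420193 to 20427808 measured 7616 bp, the longest on chromosome 22 and the 11th longest of all 2692, with a score of 81.63. These first 3 peaks lay more than 1000 kb from one another, at gaps of 1024 and 1859 kb.

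The following 3 peaks lay closer together. The peak from 20689199 to 20689799 was the shortest of the window, 601 bp, and scored 59.06. The peak from 21086821 to 21091191 was 4371 bp long and scored 69.96. The peak from 21179960 to 21185502 was 5543 bp long and scored 66.82. The last 2 of these were 88.8 kb apart, the narrowest gap between neighbours in the window. Towards BCR, the peak from 21996595 to 21997780 was 1186 bp long and had the lowest score of the window, 52.96. The last, from 22638881 to 22642425, was 3545 bp long and had the highest, 100.06. Long and short peaks were thus interspersed, and the 5 long ones spread over the window from its first peak to its last. The window is known to hold PI4KA, PI4KAP1 and PI4KAP2, but which of these peaks, if any, lie on them was not determined, since their hg19 positions were not used here. Reads from such near-identical copies can be placed on more than 1 of them, and the authors' treatment of those reads is unknown here.

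The median length of the 8 peaks was 3958 bp (quartiles 1074 and 4994 bp), against 772 bp (540 and 1129 bp) for the 32 other peaks of chromosome 22 and 851 bp for all peaks. A length of at least 2000 bp was reached by 5 of the 8 (62.5%, exact 95% Clopper-Pearson interval 24.5% to 91.5%) and by 2 of the 32 others (6.25%, 0.766% to 20.8%), against 14.0% of the whole list. At 4000 bp the counts were 4 of 8 and 1 of 32, against 3.90% of the list. Of the 10 longest peaks of chromosome 22, 5 lay in the window, which held 8 of its peaks against 32 outside. These 5 were all among the 6 longest. The other of those 6, from 32107508 to 32113317, measured 5810 bp and scored 108.77.

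Covered length followed from this. The 8 peaks covered 28.4 kb, or 4.12 kb per Mb at a mean length of 3551 bp. The 30 peaks beyond the window covered 32.5 kb, or 1.18 kb per Mb at a mean of 1085 bp. Covered sequence per Mb was therefore 3.48-fold higher in the window, while the number of peaks per Mb was 1.06-fold higher.

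**Figure D3:**
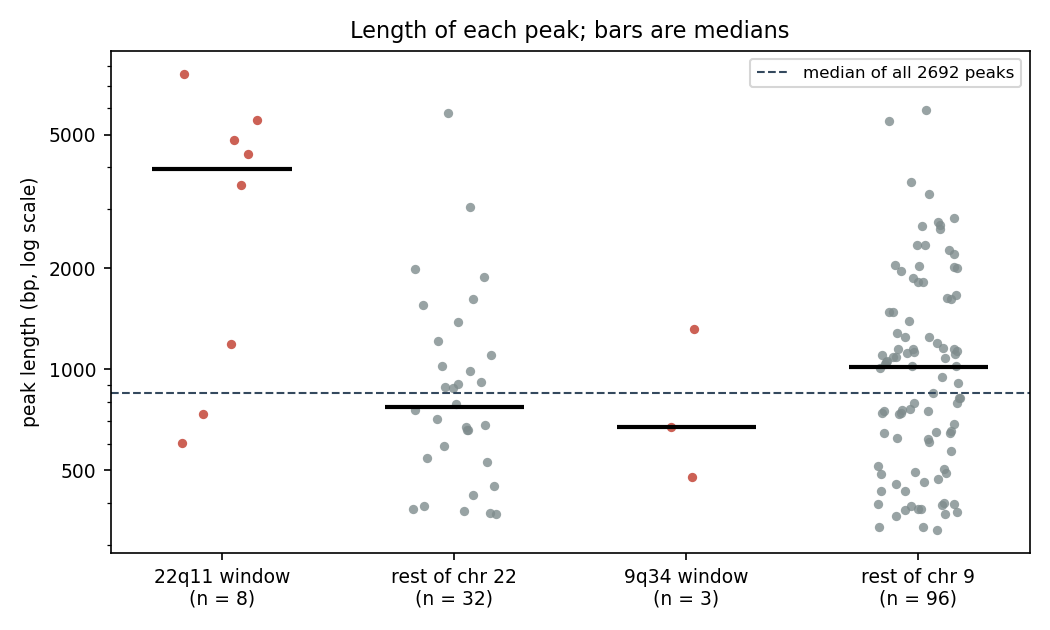
Length of each peak in bp (log scale) in the 22q11 window, on the rest of chromosome 22, in the 9q34 window and on the rest of chromosome 9, with black bars for the medians and a dashed line for the median of all 2692 peaks. In the 22q11 window 4 of 8 peaks reach 4000 bp, and on the rest of chromosome 22 1 of 32 does.

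The same lengths were set beside other parts of the genome as a description, with no test. The 22q11 window was chosen with earlier results of these data known, so its rank is not that of a window fixed beforehand. Among the 407 other stretches of 6.9 Mb, 221 held at least 5 peaks. Their median lengths had a median of 827 bp and reached 1949 bp, so 0 of them came up to the 3958 bp of the 22q11 window. Stretches with fewer peaks were left out, and medians there could be longer, as with 5935 bp from 3 peaks on chromosome 5. At least as many peaks of 2000 bp or more also occurred in other stretches. Examples were 6 of 12 peaks on chromosome 2 (median length 1896.5 bp) and 6 of 15 on chromosome 19 (median length 1949 bp). Further examples were 7 of 20 peaks on chromosome 15 and 11 of 51 on chromosome 16. Among 2505 overlapping runs of 8 successive peaks elsewhere, the highest median was 3480.5 bp, and 95% of the runs were at or below 1538 bp. Runs with 5 or more peaks of at least 2000 bp did occur elsewhere, 15 of them, with up to 6 such peaks. These runs share peaks with one another, so 15 is not a number of separate loci.

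**Figure D4:**
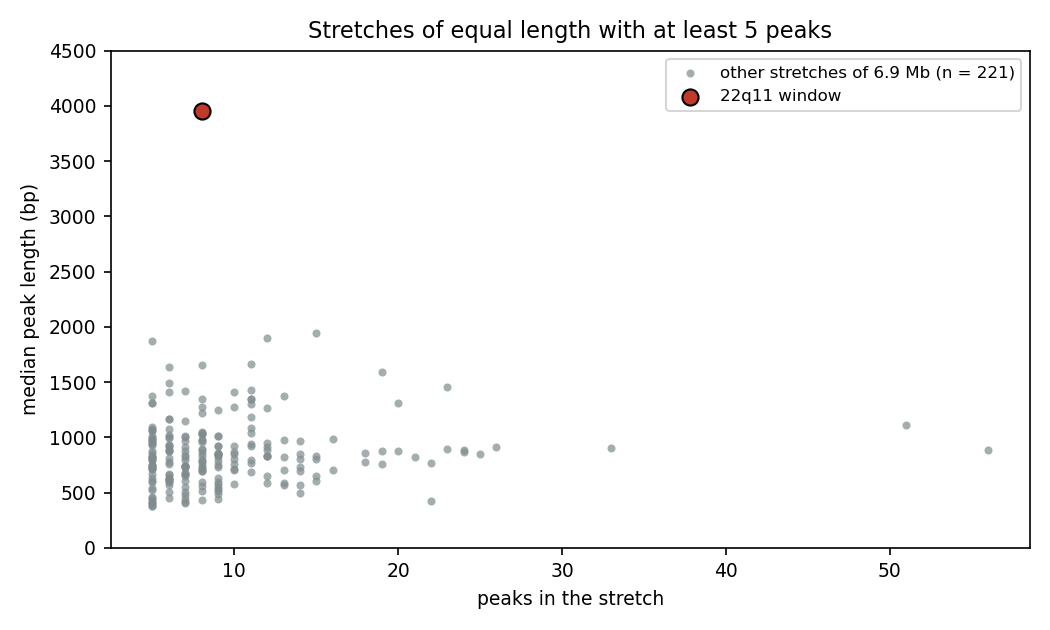
Median peak length in bp (vertical axis) against the number of peaks (horizontal axis) in stretches of 6.9 Mb that held at least 5 peaks. The 221 other stretches, in grey, reach 1949 bp, and the 22q11 window, in red, lies at 3958 bp with 8 peaks.

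The 9q34 window held no peak of such length. Its 3 peaks had lengths of 476, 671 and 1322 bp and a median of 671 bp, against 1015 bp (quartiles 557 and 1515 bp) for the 96 other peaks of chromosome 9, and 0 of 3 reached 2000 bp against 17 of 96. With 3 peaks this share could lie anywhere from 0 to 70.8%, so no difference from the rest of chromosome 9 was detectable. All 3 lengths fell within the range of the rest, 331 to 5912 bp.

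Scores lay close to those of the whole list, whose median was 65.9. In the 22q11 window the median was 65.1 (quartiles 61.0 and 72.9, range 52.96 to 100.06), against 57.0 (54.0 and 71.9, range 51.26 to 128.64) for the rest of chromosome 22. The 12 peaks in the 10 Mb on each side of the window had a lower median of 54.8 (quartiles 53.3 and 59.1), so the window's lower quartile lay above their upper one, while their range, 51.26 to 108.77, took in every score of the window. In the 9q34 window it was 62.6 (50.95 to 108.87), against 64.8 on the rest of chromosome 9 and 59.99 for the 16 peaks in the 10 Mb on each side. Of the 11 peaks, 5 scored above the median of the list, which 50.0% of all peaks did. In the 22q11 window 4 of 8 did, against 10 of 32 on the rest of chromosome 22. For the 9q34 window the counts were 1 of 3 against 44 of 96 on the rest of chromosome 9. A score above 100 was reached by 2 of the 11, or 18.2% (2.28% to 51.8%), against 16.0% of the list. These were the first NUP214 peak and the peak nearest to BCR. Within the 22q11 window, the 5 peaks of at least 2000 bp scored 63.47 to 100.06, and all of them lay above the 3 shorter ones, which scored 52.96 to 61.63. Across the whole list, 93 of the 378 peaks of at least 2000 bp scored above 100, against 431 of all 2692 peaks. In the 9q34 window the shortest peak, of 476 bp, had the highest score. The scale of the score is unknown, and the score is used here only to order peaks within the list.

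**Figure D5:**
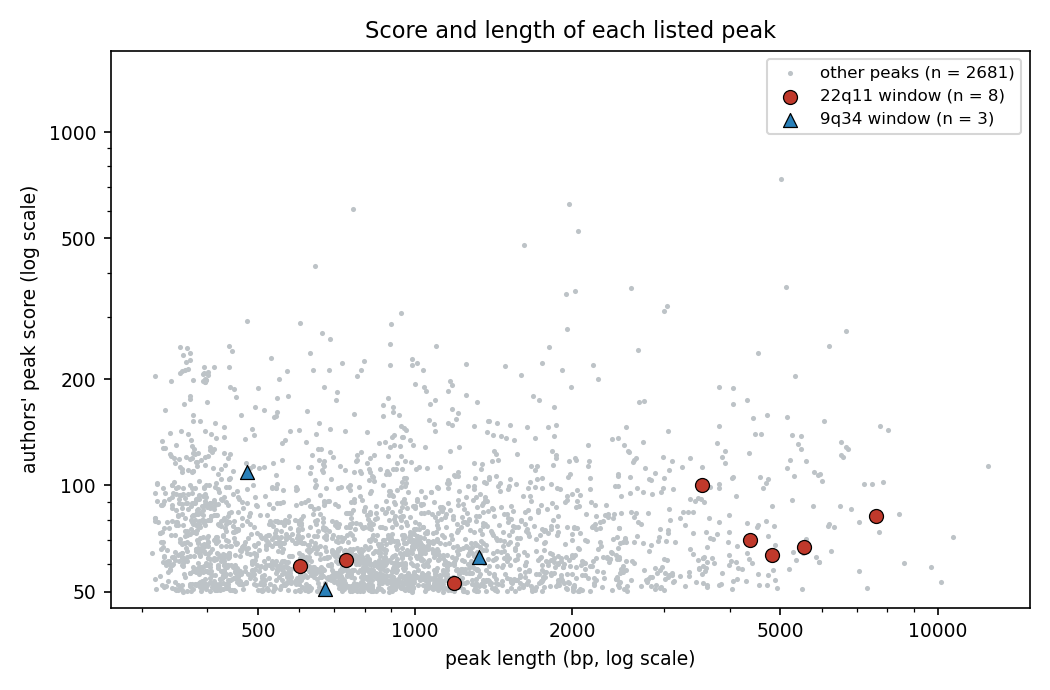
Score (the authors' value, log scale) against length in bp (log scale) for each listed peak, with the 22q11 window as red circles, the 9q34 window as blue triangles and the 2681 other peaks in grey. The 5 long peaks of 22q11 stand at the right of the cloud with scores from 63.47 to 100.06.

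Close neighbours were about as frequent as in the list. Another peak within 10000 bp was found for 2 of the 11 (18.2%), against 20.2% of all peaks, and these 2 were the pair in NUP214. In the 22q11 window 0 of 8 had such a neighbour, against 3 of 32 on the rest of chromosome 22. The broad peaks of 22q11 were therefore separate from one another at this distance. The peaks just outside the windows were mixed in size. The nearest before the 22q11 window, from 16414888 to 16415987, was 1100 bp long and scored 51.26, and the nearest after it, already named beside BCR, was 914 bp long and scored 52.33. The nearest before the 9q34 window, from 131678399 to 131680450, was 2052 bp long and scored 66.59, so it passed the length of 2000 bp that no peak inside that window reached. The nearest after the 9q34 window, from 134340100 to 134341156, was 1057 bp long and scored 51.25.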

How the data were processed

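The deposited file is the authors' peak list of the HA immunoprecipitate, which gives each peak's position, name and score but no strand. Its peak names start with MACS, a peak caller. The build is hg19, and the tools named are bedtools, SAMtools, Bowtie2, UMI-tools 1.0.0 and cutadapt, per the submitters' processing notes, which state no roles. The version and threshold of the peak caller, its control and the handling of reads with several positions are unknown here, and these choices set how broad a peak is. The score is the authors' deposited value, of unstated scale. Depth is unknown, since the list has no read counts.

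The windows, the compared measures and the lists were chosen with earlier results of these data known. All 11 peaks of the windows were named, as the rule on naming allowed for 30 or fewer. Densities used the span between listed peaks, unsequenced gaps included. Intervals are exact Poisson, conditional binomial or Clopper-Pearson at 95%. On 500 simulated pairs of counts per setting, the intervals of the density ratio held the true ratio in 97.0% to 98.2% of cases. Those counts were simulated and not drawn from the peak list. In the list, the 407 stretches of 6.9 Mb had a median of 5 peaks and a maximum of 56. How well the intervals hold for peaks that cluster was not tested. Genes other than BCR, ABL1 and NUP214 were not placed, because the available gene table describes GRCh38, so the planned count over genes of these regions was not run. The alternatives were higher-scoring peaks, merged peaks, membership by overlap, wider windows and other reference spans. Computations used scipy 1.17.1, numpy 2.4.6 and pandas 2.3.3 under Python 3.11.15, and plots used matplotlib 3.10.9.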

Additional observations from a re-analysis of the deposited data

How the results depend on the processing

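Of 46 recomputed values, 44 stayed within the interval or range of the reported value, and 2 moved. Medians of length and score were judged against the full range of the member peaks. The median of a subset of those peaks cannot leave that range, so the 44 are no measure of stability. They also include the count of peaks at BCR, ABL1 and NUP214, which rose from 2 to 3 with the intervals widened by 100 kb. The share of the 11 peaks with a neighbour fell from 18.2% within 10000 bp to 0% within 1000 bp. It was also 0% (0 of 5) when only higher-scoring peaks were counted, since 1 peak of the NUP214 pair is then left out. The share of all peaks, 20.2% within 10000 bp, fell as well, steeply within 1000 bp and slightly for higher-scoring peaks. A share of 0% from so few peaks therefore does not set the windows apart. Within 100000 bp, 4 of the 11 had a neighbour (36.4%), a lower share than that of all peaks. The density ratio of the 22q11 window ran from 0.891 to 1.59 over 9 settings, and 0 of its intervals lay wholly above 1. That of the 9q34 window ran from 3.45 to 6.26 over 8 settings, and 3 of its intervals did. Of these 3, membership by overlap repeated the main value. The median length in the 22q11 window ran from 3545 bp, without its longest peak or with a wider window, to 4957 bp with higher-scoring peaks. The comparisons with the 10 Mb on each side, with the stretch before the 22q11 window and without the longest peak were chosen after seeing the data. No paired analysis was possible because there was a single library per group. The few peaks, the single library and the unknown depth limit every value.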
